A study of Mus musculus with 6 samples.

Results

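Levels of 43 genes that neurons and other cells switch on after strong stimulation were compared between mice with and without intact Tet1. They are regulators and signalling genes that lie outside the AP-1, Egr, Nr4a, Gadd45 and Dusp families. They were picked by gene symbol from a deposited table of 23361 genes, and all 43 were found there and passed the level filter. The libraries come from whole hippocampus of Tet1Δe4-/- mice, a line deficient in the DNA dioxygenase TET1 whose name denotes a deletion of exon 4 (3 libraries), and of wild-type Tet1+/+ mice (3 libraries), with 3 mice per genotype in the design. Both genotypes received the same electroconvulsive shock through ear clamps (18 mA, 100 Hz, 0.2 ms pulses, 1.15 seconds), which sets off a tonic-clonic seizure, and the tissue was taken between 1.5 and 2 hours afterwards. The sources used here give no age, sex or strain. Unshocked hippocampus was not analysed here, so the values below are levels after a shock and not inductions.

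Genes of this kind often belong to the early programme that a calcium signal starts, and membership was not tested here. Calcium entry activates kinases that phosphorylate CREB, which sits on cyclic AMP response elements (CREs), and the partners of serum response factor (SRF), which sits on CArG boxes, and transcription starts without new protein synthesis. Many of the products then shorten or limit the response: they direct the decay of other messengers, brake G protein signalling, or stop the cell cycle. Many of the transcripts are themselves short-lived, so their level depends on the time since stimulation.

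Levels are given in FPKM, fragments scaled by transcript length and by the mapped fragments of the library, which allows levels of genes of different length to be set side by side. Differences are Tet1Δe4-/- minus Tet1+/+ on the scale log2(FPKM + 1), which understates the change of genes near 1 FPKM, and come from a limma model of the 12533 genes whose mean reached 1 FPKM, with Benjamini-Hochberg adjustment over all of them and a threshold of 0.05. Read depth is unknown because FPKM does not keep it. The libraries correlated with each other at 0.965 to 0.990 across genes. Replicate 1 of each genotype stood apart from the other 4 libraries on the first principal component, which held 53.3% of the variance. The title code of Tet1+/+ replicate 1 carries an f where those of the other libraries carry an m, and that of Tet1+/+ replicate 3 a b where the others carry an a, letters the labels do not explain. Tet1 itself measured 0.740, 0.685 and 0.638 FPKM in Tet1Δe4-/- and 0.977, 0.718 and 0.897 FPKM in Tet1+/+ libraries (exact two-sided permutation p = 0.2, where 0.1 is the smallest possible), and a value over the whole gene does not check a deletion of 1 exon.

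Promoters were read for the elements that these factors bind. RefSeq promoter sequences (GRCm38.p6, 250 bases before to 50 after the start site) matched 34 of the 43 genes and held 43 promoters of them, some genes having several. Klf10, Myc, Bhlhe40, Cebpd, Ier2, Baz1a, Zfp36l2, Trib1 and Gem had no entry. Both strands were searched for the full CRE TGACGTCA, which occurred near Arl5b, Btg2 and Plk2, and for the CArG box, which occurred near Srf, Zfp36 and Rnd3. A stretch is shown for every gene with a full CRE or a CArG box, whatever its level or difference. Srf encodes the factor that reads the CArG box. Capitals mark the match, and each stretch ends upstream of the start site.
Arl5b, chr2:15055169-15055236, plus strand: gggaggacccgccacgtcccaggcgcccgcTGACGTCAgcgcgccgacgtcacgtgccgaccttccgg
Btg2, chr1:134079284-134079351, minus strand: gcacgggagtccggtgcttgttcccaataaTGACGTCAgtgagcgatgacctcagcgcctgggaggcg
Plk2, chr13:110394952-110395019, plus strand: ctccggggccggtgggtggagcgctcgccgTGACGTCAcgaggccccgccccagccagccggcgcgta
Srf, chr17:46556185-46556274, minus strand: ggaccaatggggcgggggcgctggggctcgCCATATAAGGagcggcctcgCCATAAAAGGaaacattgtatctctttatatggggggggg
Zfp36, chr7:28379247-28379316, minus strand: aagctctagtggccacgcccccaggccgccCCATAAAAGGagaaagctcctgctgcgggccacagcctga
Rnd3, chr2:51149172-51149241, minus strand: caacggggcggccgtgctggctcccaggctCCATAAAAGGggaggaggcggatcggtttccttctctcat
The CRE began 121 bases upstream of the start site in Arl5b, 166 in Btg2 and 62 in Plk2. Srf carried a pair of CArG boxes, beginning 82 and 62 bases upstream, while the single box of Zfp36 began at 58 and that of Rnd3 at 100. A full CRE was found in 7.0% of the 43 member promoters and 1.79% of all 32851 promoters of the same length, and a CArG box in 7.0% against 1.63%. The short CRE core TGACG, which the full CRE contains, was found in 46.5% against 20.81%. The AP-1 element TGANTCA stood at 7.0% against 7.81%, and the EGR element GCGTGGGCG was in 0 member promoters and 0.61% of all. These shares describe letters in a window and were not tested.

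None of the 43 genes passed the test for a difference between genotypes. In limma 0 passed the adjusted threshold, where 0.0319% of all genes tested did, and 0 had an unadjusted p under 0.05, where 1.36% of all genes did. There were 20 genes higher and 23 lower in Tet1Δe4-/- hippocampus, with log2 differences from −0.34 to 0.27 and a median of −0.00702, beside a median of 0.00547 over all genes tested. The smallest unadjusted p was 0.0789, and the adjusted p of every member rounded to 1.00. A miss of the threshold does not show equal levels. The 95% intervals bound the differences: for 22 genes the interval lay within 0.5 on the log2 scale in both directions, and for 39 within 1. The 4 genes with wider intervals were Arl5b (−1.57 to 1.58), Btg2 (−1.51 to 0.83), Baz1a (−0.99 to 1.15) and Tiparp (−0.62 to 1.06).

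**Figure D1:**
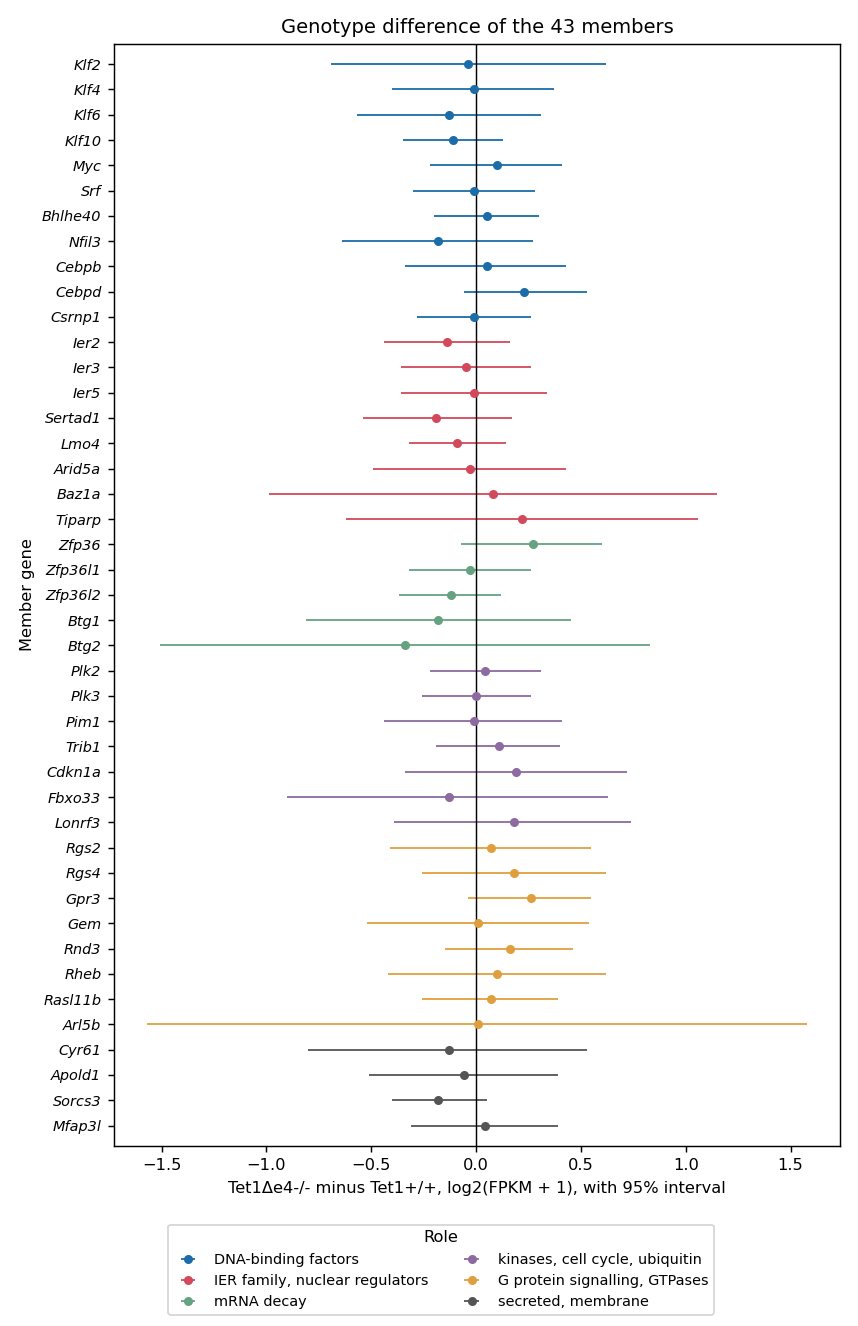
Log2 difference of each of the 43 genes, Tet1Δe4-/- minus Tet1+/+ on the log2(FPKM + 1) scale (x axis), with limma's 95% interval as a bar and colours for the role of the product. Every interval spans 0, and those of Arl5b and Btg2 are the widest.

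The libraries of the genotypes separated completely for 2 genes, Gpr3 and Cebpd, both higher in Tet1Δe4-/-, and for none in the lower direction. That is 4.65% of the genes, where 4.13% of all genes tested separated (1.91% higher and 2.21% lower), so the share lies near the background. Gpr3 encodes an orphan receptor that raises cyclic AMP without a known ligand. It measured 8.13, 7.58 and 7.98 FPKM in Tet1Δe4-/- and 5.32, 6.76 and 7.44 FPKM in Tet1+/+ libraries. The Tet1Δe4-/- values sat close together and the Tet1+/+ values spread downward from them, with replicate 1 lowest. The log2 difference was 0.26 (SE 0.124, 95% interval −0.04 to 0.55, limma unadjusted p 0.0789). Leaving out 1 library moved it between 0.14 (without Tet1+/+ replicate 1) and 0.35 (without Tet1+/+ replicate 3). In the 4 libraries other than replicate 1 it was 0.12. Cebpd, a bZIP transcription factor of inflammatory and astrocyte responses, measured 3.82, 4.68 and 3.66 FPKM in Tet1Δe4-/- and 2.77, 3.51 and 3.62 FPKM in Tet1+/+ libraries. Its groups were separated by the narrow step between 3.66 and 3.62 FPKM (log2 difference 0.23, SE 0.124, limma unadjusted p 0.102). The Cebpd difference ran from 0.14 without Tet1+/+ replicate 1 to 0.29 without Tet1+/+ replicate 3, and was 0.08 with estimated library weights. Gpr3 lies at chr4:133209340-133212536 and Cebpd at chr16:15887286-15891031 (mm10). An exon of Gpr3 overlaps Cd164l2 and one of Cebpd overlaps Spidr on the opposite strand. In all, 12 of the 43 genes have such an overlap, and the sources used here state no strand setting, so reads of the partners cannot be told apart.

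Among the DNA-binding factors 4 were higher and 7 lower, and 0 of 11 passed the threshold (median log2 difference −0.01). Srf, whose promoter is shown above, measured 19.9, 17.7 and 23.6 FPKM in Tet1Δe4-/- and 21.1, 21.3 and 18.8 FPKM in Tet1+/+ libraries. The genotype means were equal to 3 digits, at 20.4 ± 2.96 FPKM in Tet1Δe4-/- and 20.4 ± 1.35 FPKM in Tet1+/+ libraries (SD, n = 3 each). Bhlhe40, a bHLH repressor that links activity to the circadian clock, was the most abundant factor of this group, with 57.0, 50.9 and 63.3 FPKM in Tet1Δe4-/- and 54.0, 58.1 and 52.8 FPKM in Tet1+/+ libraries. The Tet1+/+ values lay inside the range of the Tet1Δe4-/- values. Cebpb, a bZIP factor that acts with Cebpd, measured 3.59, 4.50 and 4.70 FPKM in Tet1Δe4-/- and 3.09, 4.89 and 4.44 FPKM in Tet1+/+ libraries, lowest in replicate 1 of each genotype. Myc, a growth regulator, was low at 3.60, 3.84 and 4.91 FPKM in Tet1Δe4-/- and 3.31, 4.28 and 3.74 FPKM in Tet1+/+ libraries, and its groups overlapped.

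The Krüppel-like factors, zinc finger proteins of which some, such as Klf4, restrain neurite growth and others, such as Klf6, promote it, were spread over a wide range of levels. Klf10, induced by TGF-beta, averaged 16.0 ± 1.63 FPKM in Tet1Δe4-/- and 17.3 ± 0.369 FPKM in Tet1+/+ libraries (SD, n = 3 each). Klf6 averaged 6.87 ± 1.35 FPKM in Tet1Δe4-/- and 7.65 ± 1.90 FPKM in Tet1+/+ libraries. Klf4 was near the filter, at 1.19, 1.97 and 1.21 FPKM in Tet1Δe4-/- and 1.62, 1.10 and 1.69 FPKM in Tet1+/+ libraries. Klf2, an endothelial flow-responsive factor, was lower still, at 0.938, 2.36 and 0.648 FPKM in Tet1Δe4-/- and 0.917, 1.22 and 1.73 FPKM in Tet1+/+ libraries. Both Klf2 and Klf4 were highest in Tet1Δe4-/- replicate 2, and Tet1+/+ replicate 3 followed. The summed FPKM of 12 endothelial markers was also highest in these libraries, at 45.1, 74.4 and 42.2 in Tet1Δe4-/- and 57.9, 50.7 and 78.9 in Tet1+/+ libraries. That of 6 choroid plexus markers was too, at 21.8, 195 and 9.44 FPKM in Tet1Δe4-/- and 16.9, 7.72 and 302 FPKM in Tet1+/+ libraries. Only 2 of these 6 markers passed the level filter. Pericyte and smooth muscle markers had another order, with sums of 44.5, 58.5 and 40.2 FPKM in Tet1Δe4-/- and 71.0, 45.6 and 78.3 FPKM in Tet1+/+ libraries. Meningeal fibroblast markers were highest in Tet1+/+ replicates 1 and 3. The part of these cells in the Klf values was not tested, and in whole tissue fewer cells of a type and less RNA per cell cannot be told apart. Nfil3, a bZIP repressor, averaged 8.02 ± 1.98 FPKM in Tet1Δe4-/- and 9.15 ± 1.50 FPKM in Tet1+/+ libraries, and Csrnp1, a nuclear protein with a cysteine- and serine-rich region, 15.0 ± 1.66 FPKM in Tet1Δe4-/- and 15.1 ± 1.42 FPKM in Tet1+/+ libraries (SD, n = 3 each).

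The immediate early response (IER) proteins and other nuclear regulators were 2 higher and 6 lower, and 0 of 8 passed the threshold (median −0.04). Ier5, a cofactor of heat shock factor and phosphatases, was the highest of its family, averaging 36.7 ± 3.28 FPKM in Tet1Δe4-/- and 37.4 ± 6.45 FPKM in Tet1+/+ libraries (SD, n = 3 each). Ier2, a small nuclear protein, stood far below it at 1.83, 2.64 and 2.16 FPKM in Tet1Δe4-/- and 2.90, 2.30 and 2.38 FPKM in Tet1+/+ libraries. Ier3, which modulates survival signalling, was lower again, averaging 1.63 ± 0.177 FPKM in Tet1Δe4-/- and 1.73 ± 0.393 FPKM in Tet1+/+ libraries. Sertad1, a cofactor of cyclin-dependent kinase 4 and E2F, measured 11.9, 14.5 and 17.9 FPKM in Tet1Δe4-/- and 15.9, 18.1 and 16.2 FPKM in Tet1+/+ libraries (log2 difference −0.19, SE 0.149, limma unadjusted p 0.251), with the 2 lowest values in Tet1Δe4-/-. Lmo4, a LIM-only adaptor between transcription factors, was abundant at 76.4, 82.8 and 80.8 FPKM in Tet1Δe4-/- and 94.4, 79.7 and 82.4 FPKM in Tet1+/+ libraries. Tet1+/+ replicate 1 lay above the other libraries. Arid5a, an RNA- and DNA-binding protein that stabilises cytokine messengers, averaged 4.12 ± 1.13 FPKM in Tet1Δe4-/- and 4.19 ± 0.891 FPKM in Tet1+/+ libraries.

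Tiparp and Baz1a varied widely inside each genotype. Tiparp, a mono-ADP-ribosyltransferase that represses the aryl hydrocarbon receptor, measured 13.9, 6.89 and 7.76 FPKM in Tet1Δe4-/- and 13, 6.40 and 5.24 FPKM in Tet1+/+ libraries. Replicate 1 was high in both genotypes, and the log2 difference of 0.22 (SE 0.355) was smaller than its error. It was −0.06 without Tet1Δe4-/- replicate 1 and −0.01 without Tet1+/+ replicate 3. Baz1a, the large subunit of the ACF chromatin remodeller, ran the other way, with 0.960, 3.17 and 1.88 FPKM in Tet1Δe4-/- and 0.391, 2.39 and 3.21 FPKM in Tet1+/+ libraries. Replicate 1 was lowest in both genotypes. Exons of Baz1a overlap the annotated gene Gm20403 on the same strand, and its transcript matches Gm48990 at 95% identity or more, so its value is uncertain.

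The regulators of messenger decay were 1 higher and 4 lower, and 0 of 5 passed the threshold (median −0.12). The ZFP36 proteins bind AU-rich elements in short-lived messengers and recruit the CCR4-NOT deadenylase. Zfp36 measured 3.58, 3.86 and 3.09 FPKM in Tet1Δe4-/- and 3.09, 3.11 and 2.11 FPKM in Tet1+/+ libraries. Its groups overlapped slightly, with Tet1+/+ replicate 3 lowest (log2 difference 0.27, SE 0.140, 95% interval −0.07 to 0.60, limma unadjusted p 0.0999). Its relatives had lower means in Tet1Δe4-/- and did not pass the test: Zfp36l1 averaged 8.81 ± 0.301 FPKM in Tet1Δe4-/- and 9.11 ± 1.52 FPKM in Tet1+/+ libraries, and Zfp36l2 6.30 ± 0.767 FPKM in Tet1Δe4-/- and 6.92 ± 0.244 FPKM in Tet1+/+ libraries (SD, n = 3 each). No difference between these 3 relatives was tested, and each has an opposite-strand gene over an exon. For Zfp36l1 the opposite-strand gene is Gm26669, and the match of its transcript to Gm26669 at 95% identity or more is to this same gene.

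Btg2 and Btg1, antiproliferative proteins that bind the same deadenylase, were highest in Tet1+/+ replicate 1. Btg2 measured 11.5, 6.57 and 8.57 FPKM in Tet1Δe4-/- and 27.2, 7.74 and 6.46 FPKM in Tet1+/+ libraries. Tet1+/+ replicate 1 stood far above the other 5, with Tet1Δe4-/- replicate 1 next. The log2 difference was −0.34 (SE 0.494, limma unadjusted p 0.514), the lowest of all 43, and it was 0.26 without Tet1+/+ replicate 1. Btg1 had the same order at the top, with 5.61, 3.84 and 3.77 FPKM in Tet1Δe4-/- and 8.11, 3.88 and 3.98 FPKM in Tet1+/+ libraries. The Btg1 transcript matches Gm14519 at 95% identity or more, which makes its value uncertain.

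Kinases, the cell cycle inhibitor and the ubiquitin ligase parts were 4 higher and 3 lower, and 0 of 7 passed the threshold (median 0.04). Plk2, a polo-like kinase that lowers synaptic strength after prolonged activity, had the highest level of all 43 genes, with 247, 272 and 294 FPKM in Tet1Δe4-/- and 236, 288 and 265 FPKM in Tet1+/+ libraries. The groups overlapped throughout, and the 95% interval of the difference ran from −0.22 to 0.31. Plk3, a stress-responsive relative, was far scarcer, averaging 4.02 ± 0.552 FPKM in Tet1Δe4-/- and 4.02 ± 0.284 FPKM in Tet1+/+ libraries (SD, n = 3 each). Pim1, a survival kinase, averaged 7.16 ± 1.77 FPKM in Tet1Δe4-/- and 7.17 ± 1.19 FPKM in Tet1+/+ libraries, and Trib1, a pseudokinase that directs C/EBP proteins to degradation, 5.40 ± 0.523 FPKM in Tet1Δe4-/- and 4.97 ± 0.776 FPKM in Tet1+/+ libraries. Cdkn1a, the p21 inhibitor of cyclin-dependent kinases, measured 12.7, 19.0 and 15.6 FPKM in Tet1Δe4-/- and 10.1, 18.1 and 13.5 FPKM in Tet1+/+ libraries. It had its lowest value in replicate 1 of each genotype (log2 difference 0.19, SE 0.222, limma unadjusted p 0.424), and the difference was 0.00 without Tet1+/+ replicate 1. Fbxo33, a substrate adaptor of SCF ubiquitin ligases, measured 22.5, 13.3 and 15.9 FPKM in Tet1Δe4-/- and 30.8, 14.8 and 14.0 FPKM in Tet1+/+ libraries, high in replicate 1 of both. Lonrf3, an X-linked RING finger protein gene, averaged 16.1 ± 3.97 FPKM in Tet1Δe4-/- and 14.3 ± 4.27 FPKM in Tet1+/+ libraries, also with replicate 1 highest in each genotype.

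All 8 genes of G protein signalling and small GTPases had a higher mean on the log2 scale in Tet1Δe4-/- hippocampus, and 0 of 8 passed the threshold (median log2 difference 0.09, range 0.01 to 0.26). Over all genes tested 52.9% were higher. The count depended on single libraries, being 4 of 8 without Tet1Δe4-/- replicate 1 and 5 of 8 without Tet1+/+ replicate 2 or 3. It was 7 of 8 with quantile normalization, with library weights, in the 4 libraries other than replicate 1, and without Tet1Δe4-/- replicate 3 or Tet1+/+ replicate 1. Rgs4, a GTPase-activating protein that ends Gq and Gi signals, measured 180.4, 144 and 138 FPKM in Tet1Δe4-/- and 175, 123 and 114 FPKM in Tet1+/+ libraries. Rgs2, its relative with a preference for Gq, averaged 35.7 ± 6.23 FPKM in Tet1Δe4-/- and 34.4 ± 9.16 FPKM in Tet1+/+ libraries (SD, n = 3 each), and by library it measured 42.6, 30.6 and 33.9 FPKM in Tet1Δe4-/- against 44.9, 28.1 and 30.2 FPKM in Tet1+/+. Both Rgs genes were highest in replicate 1 of each genotype.

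Rheb, the GTPase that switches on mTORC1 and thereby protein synthesis, measured 119, 76.8 and 81.4 FPKM in Tet1Δe4-/- and 109, 74.2 and 73.8 FPKM in Tet1+/+ libraries, again highest in replicate 1. Rnd3, a small GTPase that opposes actomyosin contraction, measured 8.11, 8.13 and 6.84 FPKM in Tet1Δe4-/- and 5.64, 7.47 and 7.37 FPKM in Tet1+/+ libraries (log2 difference 0.16, SE 0.128, limma unadjusted p 0.262). Here Tet1+/+ replicate 1 was the lowest library. Gem, a GTPase that inhibits calcium channels, was low and repeated almost the same values in both genotypes, 2.68, 1.46 and 1.49 FPKM in Tet1Δe4-/- and 2.69, 1.43 and 1.47 FPKM in Tet1+/+ libraries. Rasl11b, a small Ras-like GTPase, averaged 55.0 ± 6.91 FPKM in Tet1Δe4-/- and 52.5 ± 7.07 FPKM in Tet1+/+ libraries. Arl5b, a GTPase of retrograde transport to the Golgi, had the largest within-genotype standard deviation of all 43 genes, with 21.9, 5.82 and 9.59 FPKM in Tet1Δe4-/- and 29.6, 7.38 and 5.38 FPKM in Tet1+/+ libraries. Its highest library was 5.5 times its lowest, both of them Tet1+/+, while the genotype difference was 0.01 (SE 0.663).

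Of the 4 secreted and membrane proteins 1 was higher and 3 lower, and 0 passed the threshold (median −0.10). Sorcs3, a VPS10 sorting receptor of the postsynapse, measured 11.0, 12 and 10.9 FPKM in Tet1Δe4-/- and 11.8, 13.6 and 13.4 FPKM in Tet1+/+ libraries. One Tet1+/+ value lay inside the Tet1Δe4-/- range, and the difference of −0.18 had the smallest SE of the set (0.0947, 95% interval −0.40 to 0.05, limma unadjusted p 0.101). Cyr61, a matricellular protein also called Ccn1, measured 3.39, 3.07 and 3.44 FPKM in Tet1Δe4-/- and 6.53, 3.15 and 2.36 FPKM in Tet1+/+ libraries, where replicate 1 of Tet1+/+ stood alone. Apold1, an endothelial early response protein, averaged 1.23 ± 0.567 FPKM in Tet1Δe4-/- and 1.29 ± 0.263 FPKM in Tet1+/+ libraries, and Mfap3l, a membrane protein, 12.5 ± 2.41 FPKM in Tet1Δe4-/- and 12 ± 1.29 FPKM in Tet1+/+ libraries (SD, n = 3 each). All 12 endothelial markers and all 9 meningeal fibroblast markers had a lower mean on the log2 scale in Tet1Δe4-/- libraries, with 0 called. The summed levels of each set overlapped between the genotypes. The fibroblast sum was 65.1, 78.8 and 56.5 FPKM in Tet1Δe4-/- and 122, 58.0 and 118 FPKM in Tet1+/+ libraries. The part of these cells in the values of Cyr61 and Apold1 was not tested.

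**Figure D2:**
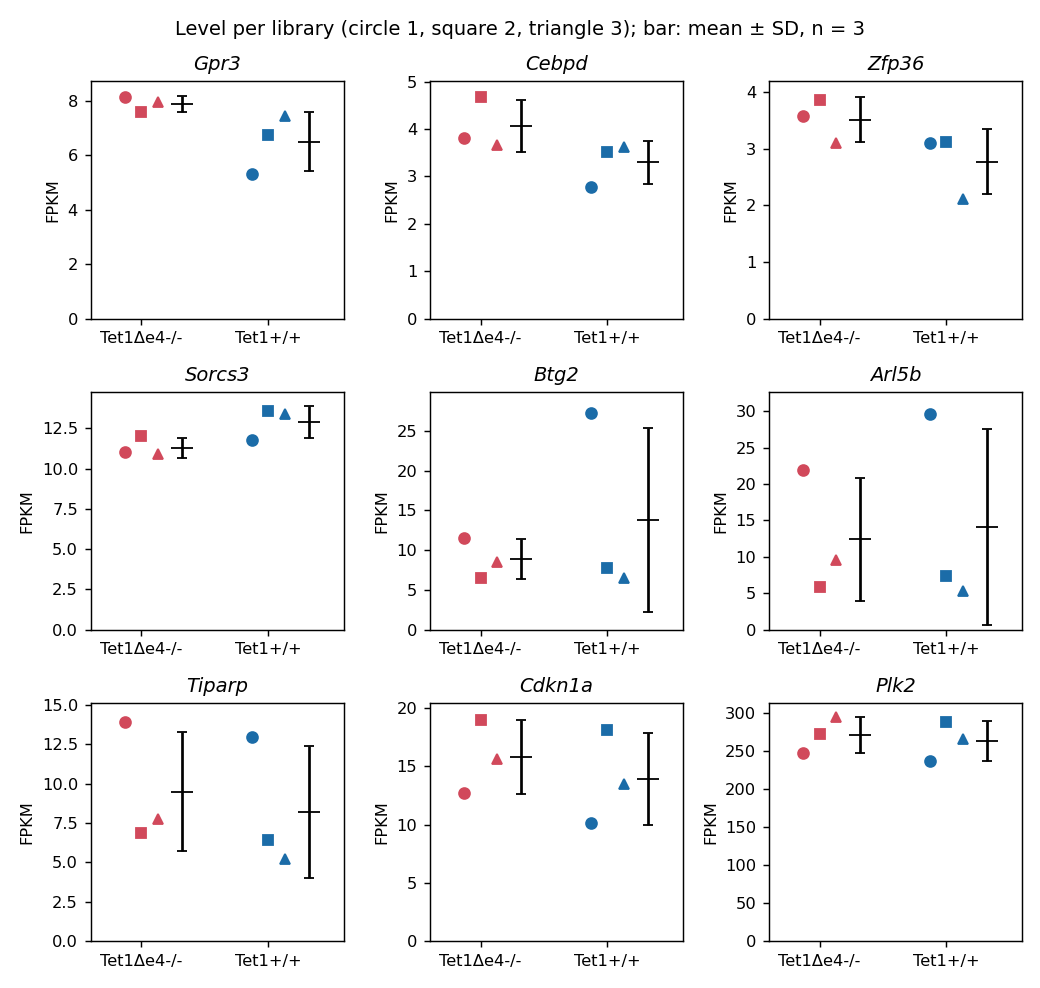
FPKM of 9 of the genes in each library of Tet1Δe4-/- (left in each panel) and Tet1+/+ hippocampus, with marker shapes for replicates and bars for the mean ± SD over 3 libraries. Gpr3 and Cebpd separate the genotypes, whereas Btg2, Arl5b and Tiparp are high in replicate 1 of both and Cdkn1a is low there.

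The genotype difference was smaller than the within-genotype standard deviation for 37 of the 43 genes, a share near the 86.3% of all genes tested. The median within-genotype standard deviation was 0.205 on the log2(FPKM + 1) scale, beside 0.160 over all genes tested. It exceeded 0.5 for 4 genes, Arl5b (1.06), Btg2 (0.783), Baz1a (0.711) and Tiparp (0.556), which is 9.3% of them, against 1.93% of all genes tested. Fbxo33 (0.50), Cyr61 (0.430) and Klf2 (0.423) followed. At the other end Sorcs3 (0.0890), Lmo4 (0.0993) and Klf10 (0.102) varied least. The spread was not compared between genotypes.

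**Figure D3:**
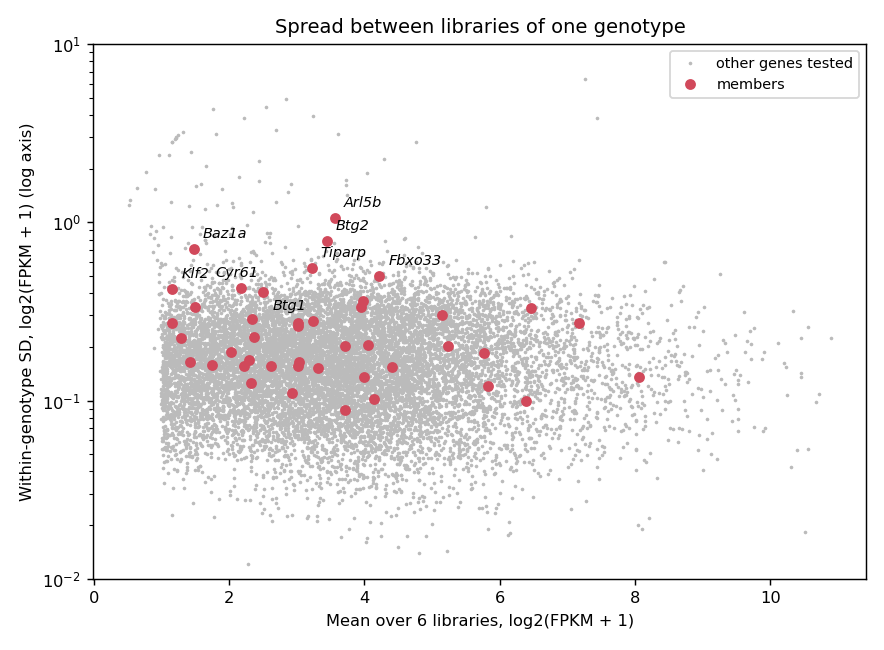
Within-genotype standard deviation (y axis, log scale) against mean level over 6 libraries (x axis), both in log2(FPKM + 1), for the 43 genes in red and all other genes tested in grey. Arl5b, Btg2, Baz1a and Tiparp lie above 0.5, while most of the red points fall inside the grey cloud.

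The genes were not high or low together in a library but fell into several profiles. Replicate 1 of Tet1Δe4-/- and replicate 1 of Tet1+/+ were the 2 highest libraries for 15 genes (34.9%), namely Arl5b, Btg1, Btg2, Fbxo33, Gem, Ier3, Klf6, Lonrf3, Mfap3l, Rgs2, Rgs4, Rheb, Tiparp, Trib1 and Zfp36l2. The same held for 28.5% of all genes tested, so this profile is shared with much of the transcriptome. These libraries were the 2 lowest for 7 genes (16.3%), Baz1a, Cdkn1a, Cebpb, Ier5, Myc, Pim1 and Plk2, and for 35.0% of all genes tested. Transcript base composition differed along this line. The median GC content of the longest annotated transcript was 44.7% for the 15 genes and 53.3% for the 7, and over all genes tested it was 43.8% for those highest and 54.9% for those lowest in these libraries. The part of base composition in the profile was not tested. A further profile, noticed after the values were seen, had Tet1Δe4-/- replicate 3 and Tet1+/+ replicate 2 highest. It held 9 genes (20.9%, against 9.94% of all genes tested), which were Bhlhe40, Cebpb, Csrnp1, Myc, Pim1, Plk2, Rasl11b, Sertad1 and Srf.

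Tet1+/+ replicate 1 held the highest value for 13 of the 43 genes (30.2%), where 16.6% of all genes tested were highest there. The mean deviation of the 43 from their own averages was 0.06, −0.05 and 0.00 in Tet1Δe4-/- libraries and 0.13, −0.04 and −0.10 in Tet1+/+ libraries on the log2 scale. The lowest and the highest library are both Tet1+/+, and the Tet1Δe4-/- libraries lie between them.

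**Figure D4:**
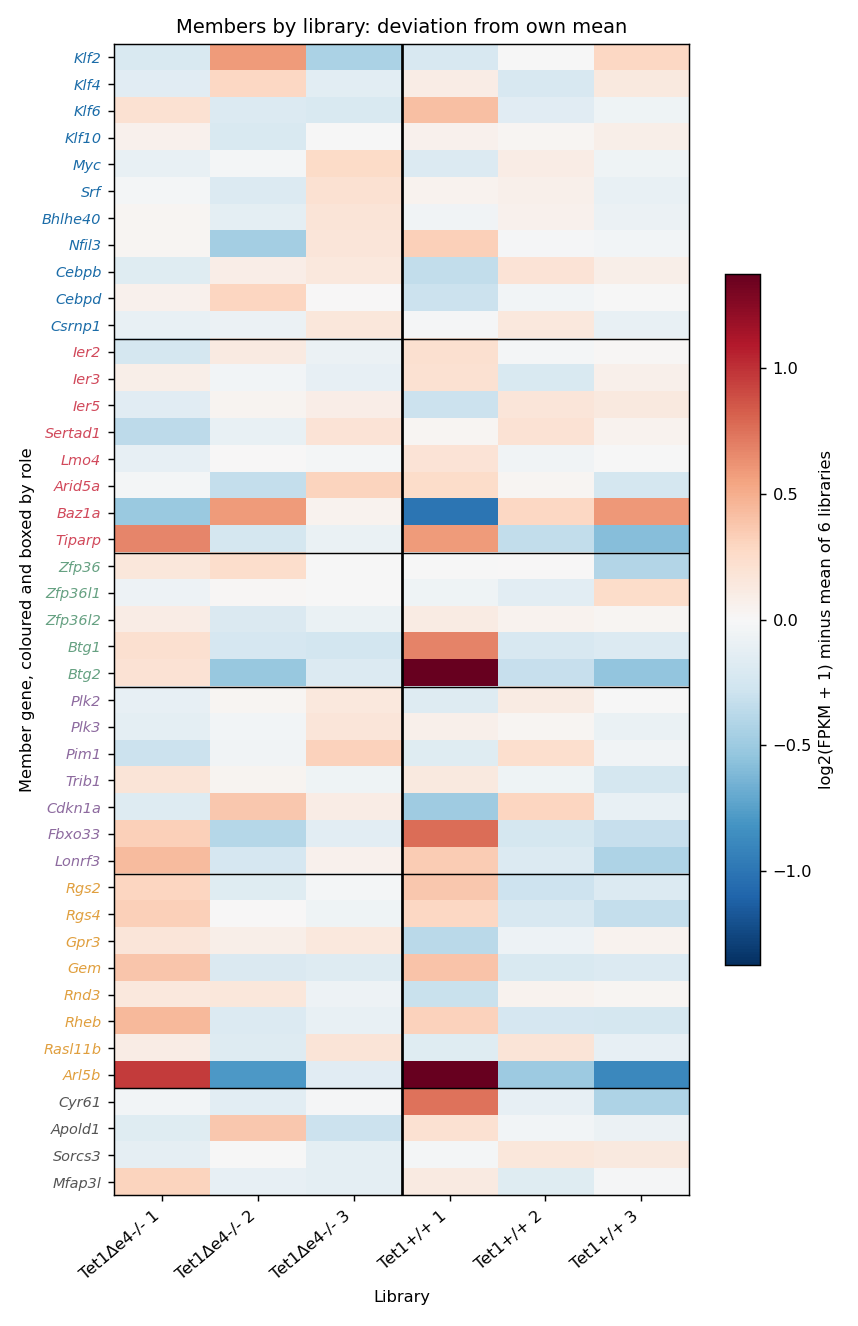
Deviation of each of the 43 genes from its own mean over 6 libraries (colour, log2(FPKM + 1)), with the 3 Tet1Δe4-/- libraries left of the line and the 3 Tet1+/+ libraries right of it. Replicate 1 of both genotypes lies above the mean (red) for Arl5b, Btg2, Tiparp, Rgs4 and Rheb, and below it (blue) for Baz1a and Cdkn1a. Shades are pale where the deviation is small, as for Btg2 and Cdkn1a in Tet1Δe4-/-.

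Genes that work beside these products or are related to them were read from 13 lists, and 0 of them passed the threshold in any list. Of their 127 different genes tested, 3 separated the genotypes upward (Pim2, Mdm2 and Rgs11) and 3 downward (Actb, Rgs9 and Ldb2), 2.36% in each direction, near the 1.91% and 2.21% of all genes tested. Among 22 targets and cofactors of SRF, 11 were higher and 11 lower (median log2 difference 0.01). The smallest p among them belonged to the cytoskeletal gene Actb, with 649, 591 and 711 FPKM in Tet1Δe4-/- and 778, 816 and 763 FPKM in Tet1+/+ libraries. Its groups did not overlap, and the log2 difference was −0.28 (SE 0.0939, limma unadjusted p 0.0221, adjusted p 1.00). The AP-1, Egr, Npas4 and Nr4a early genes were 4 higher and 10 lower (median −0.04), with the smallest unadjusted p, 0.495, for Jun (log2 difference −0.10, limma; 0.05 without Tet1Δe4-/- replicate 1). Of 14 tested Rgs genes outside the set 6 were higher and 8 lower. Rgs9, a striatal family member, measured 2.23, 3.01 and 2.81 FPKM in Tet1Δe4-/- and 3.34, 4.66 and 3.93 FPKM in Tet1+/+ libraries without overlap (log2 difference −0.43, SE 0.136, limma unadjusted p 0.0160, adjusted p 1.00). Its relative Rgs11, named after its values were seen, lay the other way without overlap, with 7.20, 6.33 and 6.25 FPKM in Tet1Δe4-/- and 4.22, 5.91 and 5.93 FPKM in Tet1+/+ libraries (log2 difference 0.27, SE 0.136, limma unadjusted p 0.0913).

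The mTORC1 list around Rheb was 6 higher and 8 lower of 14 tested (median −0.01), with the smallest p, 0.377, for the Rheb inhibitor gene Tsc1 (log2 difference −0.08). On the deadenylation list (Cnot genes, Pan2, Pan3 and the Btg relatives Btg3, Tob1 and Tob2), 6 were higher and 9 lower of 15 tested (smallest p 0.314, Tob1, log2 difference −0.15). The p53 response that includes Cdkn1a was 2 higher and 9 lower of 11 (median −0.06, smallest p 0.188, Perp, log2 difference −0.27). All 4 other VPS10 receptors of the Sorcs3 family were lower, as Sorcs3 was (median −0.10, smallest p 0.158, Sorcs1, log2 difference −0.18). Of all genes tested 52.9% were higher, and a shared direction of the family was not tested. Of Ldb1, Ldb2 and the LIM-only relatives of Lmo4 (Lmo1, Lmo2 and Lmo3), 1 was higher and 4 lower. Ldb2, an adaptor that LIM domains bind, separated the genotypes with 14.0, 14.9 and 16.4 FPKM in Tet1Δe4-/- and 18.6, 16.8 and 18.0 FPKM in Tet1+/+ libraries (log2 difference −0.22, SE 0.0958, limma unadjusted p 0.0530). The remaining lists were 4 higher and 8 lower for other KLF and SP factors (smallest p 0.321, Klf7, log2 difference −0.15), 3 and 3 for C/EBP and PAR bZIP factors (smallest p 0.131, Hlf, log2 difference −0.25), 4 and 5 for the MYC network (smallest p 0.252, Mycn, log2 difference −0.17), 2 and 2 for other polo, PIM and tribbles kinases (smallest p 0.123, Pim2, log2 difference 0.14, without overlap), and 2 and 2 for other RGK and Rnd GTPases (smallest p 0.352, Rem2, log2 difference 0.16).

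The labelled tissue carried its markers: 8 excitatory neuron markers summed to 2294, 2242 and 2222 FPKM in Tet1Δe4-/- and 2017, 2079 and 2003 FPKM in Tet1+/+ libraries.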

How the data were processed

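The authors deposited 1 table of gene-level FPKM values with a column for each library. TopHat2 2.0.9, Cufflinks 2.1.1 and build mm10 are named, per the submitters' processing notes. The sources used here state no annotation, strand setting or filter. Values were taken as log2(FPKM + 1), genes averaging 1 FPKM or more were kept, and genotypes were compared with limma 3.58.1 (R 4.3.3, intensity trend, no covariate, two-sided, Benjamini-Hochberg over all genes, threshold 0.05). The code was tested on simulated data. Libraries were grouped by the labelled genotype, and their replicate numbers are only names. No 2 libraries shared more than 1 nonzero value. Transcript length, GC content, gene overlaps and near-identical transcripts (blastn 2.17.0, 95% identity over at least 80% of the shorter transcript) came from GENCODE M21 on GRCm38, the mm10 build, and promoters from RefSeq. GC content was known for 94.2% of genes tested. Values in every library are given for genes that do not overlap, those with the 6 smallest p, the 6 largest differences, the 6 largest spreads or the 4 highest levels, and 12 named by symbol, and a few others were added after their values were seen. The 43 genes, the lists and the rules were chosen with earlier results of these data known. The alternatives tried were another pseudocount, filter, scaling, trend, weighting, threshold and set of libraries. Depth is unknown, so no counting interval is given.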

Additional observations from a re-analysis of the deposited data

How the results depend on the processing

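None of the 43 genes passed the threshold in any of 14 fits, which were the one reported, a pseudocount of 0.1 FPKM, no level filter, median-of-ratios scaling, quantile normalization, no trend, estimated library weights, the 4 libraries other than replicate 1 of each genotype, and 6 fits leaving out 1 library, nor at a threshold of 0.1. The smallest adjusted p was 0.116, for Sorcs3 with library weights. There were 6 genes with an unadjusted p under 0.05 under library weights (9.83% of all genes tested), 3 in the 4 libraries (3.86%), 2 without Tet1+/+ replicate 1 (1.86%) and 1 without Tet1+/+ replicate 3 (1.23%). The sign of the difference held in all fits for 10 genes, which were Cebpd, Zfp36, Trib1, Lonrf3, Rgs4 and Gpr3 (higher in Tet1Δe4-/-) and Klf10, Sertad1, Zfp36l2 and Sorcs3 (lower), and turned in at least 1 fit for the other 33. A held sign can rest on a value near zero, as for Sertad1 at −0.01 with library weights. The fits without the level filter or the trend reuse the same log2 values and cannot turn a sign. The other fits share most of their libraries, so a held sign is not independent support. The share of all genes tested that kept their sign is not given here. With library weights the log2 difference turned to 0.11 for Btg2, −0.01 for Cdkn1a, −0.06 for Rnd3, 0.05 for Jun and 0.00 for Tob1, and in the 4 libraries to 0.08 for Btg2, 0.01 for Jun and 0.00 for Tob1; the cause was not tested. Leaving out 1 library moved Btg2 between −0.70 and 0.26, Cdkn1a between −0.00 and 0.38, Tiparp between −0.06 and 0.57 and Jun between −0.21 and 0.05. Over all genes, calls numbered 4, and 59 with library weights, 12 in the 4 libraries and 0 to 6 with 1 library left out. Rgs9 passed with library weights (−0.49, limma adjusted p 0.0458). In the 4 libraries 7 of the 43 genes separated the genotypes upward and 6 downward, where 17.1% and 14.3% of all genes did by having fewer libraries to separate. With 1 library left out the counts ran from 2 to 7 upward and from 0 to 4 downward, where 3.48% to 11.0% and 4.09% to 10.6% of all genes did. Median-of-ratios scaling moved the median of all genes to 0.024. No paired analysis was possible because replicate numbers only name the libraries. Depth is unknown, so its limit on the genes near 1 FPKM cannot be given.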
